A study of Bos taurus with 6 samples.

Results

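Homologous recombination and Fanconi repair genes were examined in bovine fetal fibroblasts (bEFs) that carried an exogenous fat-1 gene and in wild-type bEFs. The members were the genes that the deposited table annotated to the KEGG pathways of homologous recombination or Fanconi anemia, without those it also annotated to KEGG DNA replication, to KEGG cell cycle or to the GO term chromosome segregation. This gave 64 of the 17663 genes in the table, of which 20 were annotated to homologous recombination alone, 35 to the Fanconi pathway alone and 9 to both. The choice used no expression value. fat-1 comes from a nematode and encodes a desaturase that turns n-6 into n-3 polyunsaturated fatty acids. FT cells came from 3 fetuses of fat-1 transgenic cattle (libraries FT_1 to FT_3) and WT cells from 3 fetuses of wild-type Luxi cattle (libraries WT_1 to WT_3), all aged 50–60 days. No promoter, copy number or insertion site of the transgene is named in the sources used here, nor is the breed of the FT fetuses. The cells were primary cultures of soft tissue of the trunk, without viscera, and poly(A) RNA was sequenced as 1 library per fetus.

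Homologous recombination repairs a broken chromosome by copying an intact sister. The ends are first trimmed to single strands, and these pair with the matching sequence of the sister, a step that needs BRCA2 and PALB2. The Fanconi pathway deals with crosslinks that tie the strands of DNA together: a core complex attaches ubiquitin to the FANCD2-FANCI clamp, nucleases unhook the crosslink, translesion polymerases copy past it, and recombination restores the break. Many of these genes are known to be expressed mostly in dividing cells.

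Library FT_1 held 63366834 counts, FT_2 48167642, FT_3 54204446, WT_1 69777641, WT_2 51310741 and WT_3 54271927. The member with the fewest reads had 235 over all 6 libraries. Library FT_1 stood apart from the rest. The biological coefficient of variation measures how far gene levels scatter between libraries once sampling error is taken off. FT_1 and FT_2 gave 56.9% and FT_1 and FT_3 gave 57.6%, against 8.23% for FT_2 and FT_3 and 9.99–13.4% for the pairs of WT libraries. FPKM is the number of fragments scaled by the length of the gene and the depth of the library, and below its values are given in the order FT_1, FT_2, FT_3 and WT_1, WT_2, WT_3. The 11 fibroblast markers were present in each library, with summed levels of 16050, 21810 and 21140 FPKM in FT cells and 21870, 21400 and 21700 FPKM in WT cells, of which FN1 and PDGFRA rose by the test on adjusted p described below and the other 9 were not called. Without FT_1 6 of the 11 rose and 2 fell, and DESeq2 gave 3 rises and 2 falls with all libraries. FN1, the gene of fibronectin, was the most abundant of them in FT_1 (7499, 1780 and 1831 FPKM in FT cells and 284, 239 and 304 FPKM in WT cells). Vimentin (VIM) measured 1244, 3850 and 4171 FPKM in FT cells and 7891, 8178 and 7312 FPKM in WT cells.

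The 7 epithelial markers in the table summed to 438.1, 12.8 and 11.9 FPKM in FT cells and to 10.1, 7.83 and 13.9 FPKM in WT cells. The keratin gene KRT5, their most abundant gene in FT_1, measured 172, 2.57 and 1.63 FPKM in FT cells and 0, 0 and 0 FPKM in WT cells, and KRT18 measured 11.2, 0.34 and 0.18 FPKM in FT cells and 0, 0 and 0 FPKM in WT cells. EPCAM, which defines most epithelia, measured 0.57 FPKM in FT_1 and was listed at 0 in the other libraries. Of the 5 markers tested, 0 rose or fell by edgeR and by DESeq2 with all 6 libraries (4 by edgeR at an unadjusted p under 0.05), and 4 rose by edgeR without FT_1. With all libraries 4 also rose by edgeR with the replicate number as a block and 2 by limma on log2(FPKM + 0.1). The 6 endothelial markers summed to at most 1.52 FPKM in any library with KDR at 0 in each FT library, and none of the 3 that could be tested was called by edgeR with all libraries, while 1 of 4 fell without FT_1. Of these PECAM1 measured 0.38, 0.09 and 0.1 FPKM in FT cells and 0.76, 0.46 and 0.59 FPKM in WT cells and VWF 0.27, 0.21 and 0.23 FPKM in FT cells and 0.37, 0.29 and 0.28 FPKM in WT cells. The 6 immune markers summed to 3.56–7.96 FPKM, with CD14 the most abundant and CD3E at 0 in each FT library, and 1 of 3 tested fell (CD68), against 2 without FT_1 and 0 without FT_2 or any 1 of the WT libraries. The 5 muscle and neural markers summed to 30.2, 64.5 and 63.9 FPKM in FT cells and 31.4, 35.4 and 31.1 FPKM in WT cells (1 rose and 2 fell, against 2 and 3 without FT_1 and 1 and 0–1 without another library). Their desmin gene DES measured 5.74, 4.01 and 3.17 FPKM in FT cells and 0.07, 0 and 0 FPKM in WT cells, and TUBB3 measured 2.03, 1.24 and 1.54 FPKM in FT cells and 2.74, 3.74 and 3.19 FPKM in WT cells. The part of these cell types in the results was not tested, and the results are given with and without FT_1 where they rest on it. In such bulk samples fewer cells of a type and less RNA per cell cannot be told apart. The edgeR p-values weigh the difference between the groups against the spread within each group, and they cover these 6 cultures only.

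Across all genes, edgeR's quasi-likelihood test with Benjamini-Hochberg adjustment, with genes called at an adjusted p under 0.05, was run on 13482 genes with enough reads. It found 2696 (20.0%) higher and 2544 (18.9%) lower in FT cells, and the median of the log2 fold changes (FT over WT) was 0.03. All 64 members were among the genes tested. Of them 11 rose (17.2%), 16 fell (25.0%) and 37 were not called. The share that rose was close to that of all genes, and the share that fell was 25.0% against 18.9%. The median log2 fold change of the members was -0.09, with 34 members lower and 30 higher in FT cells. By the study's threshold, an unadjusted p under 0.05 with an absolute log2 fold change over 1, 2 members rose and 9 fell, against 1366 (10.1%) and 1190 (8.83%) of all genes. In FPKM, 13 members were higher in each FT library than in any WT library, against 21.8% of all genes tested, 28 were lower in each FT library, against 36.9%, and the groups overlapped for 23.

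The split between rises and falls depended on the scaling of the libraries. With the library totals alone the median of all genes moved by -0.15, from 0.03 to -0.12, and 2031 genes rose (15.1%) while 3385 fell (25.1%). The members then had a median of -0.24, which remained lower than that of all genes, with 7 that rose and 21 that fell. Rises made up 40.7% of the members' calls with the main scaling and 25.0% with the totals alone, and 51.5% and 37.5% of the calls among all genes. None of the 27 called members changed sign with the totals alone, but BABAM2, RBBP8, FANCE and POLK were no longer called, XRCC2, RAD54L, BRIP1, ABRAXAS1 and POLI were called as lower, and 8 members that were not called (RAD54B, XRCC3, BABAM1, PALB2, MRE11, FAN1, FANCG and WDR48) took the other sign.

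**Figure D1:**
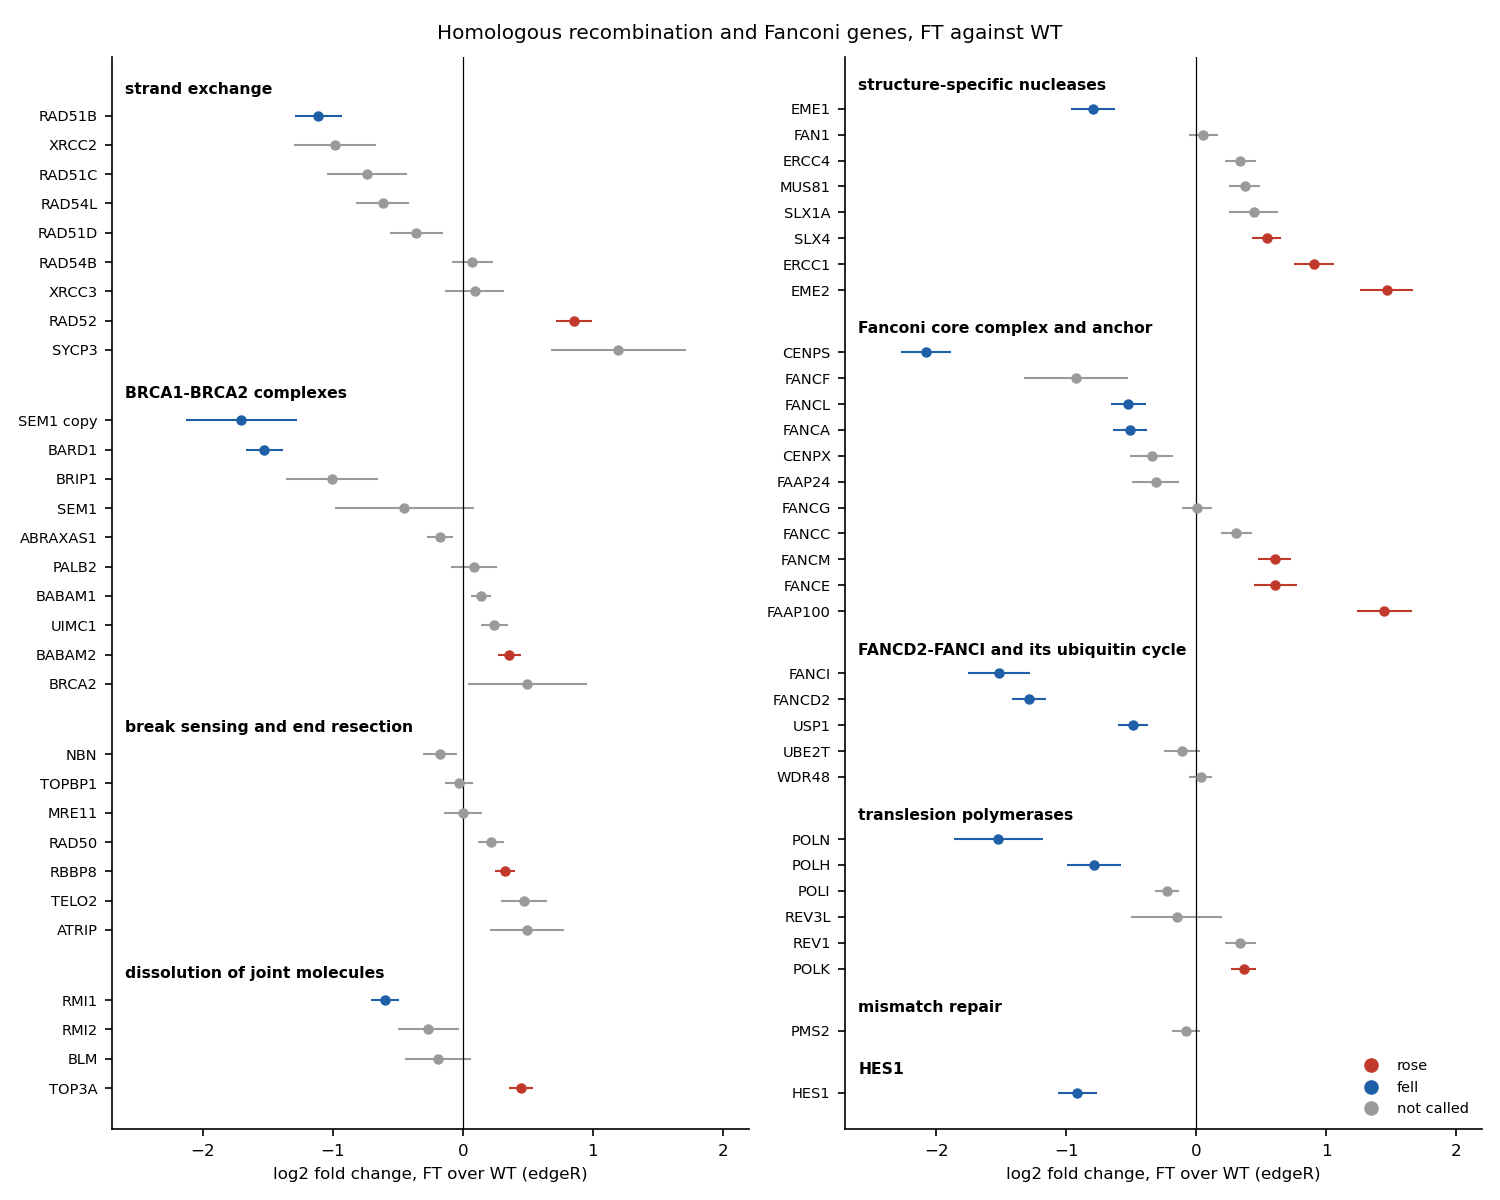
Log2 fold change (FT over WT, edgeR) of 62 of the 64 members, grouped by role, with bars of 1 SE. Red points rose, blue points fell and grey points were not called. CENPS lies lowest at -2.08 and EME2 highest at 1.47.

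Among the members that pair and exchange strands, RAD51B fell and RAD52 rose. RAD51B (ENSBTAG00000018971, chromosome 10, 79669849–80286850, plus strand) belongs to a complex with RAD51C, RAD51D and XRCC2 and measured 2.56, 2.05 and 2.07 FPKM in FT cells and 5.54, 5.76 and 4.87 FPKM in WT cells. The highest FT library lay under the lowest WT library, with a fitted level 2.16-fold lower (log2 fold change -1.11, SE 0.18, edgeR with Benjamini-Hochberg adjusted p = 0.00586). RAD52 (ENSBTAG00000005225, chromosome 5, 107708193–107734428, minus strand) pairs complementary single strands and went the other way, with 13.4, 9.92 and 10.0 FPKM in FT cells and 6.57, 7.33 and 6.69 FPKM in WT cells. Each FT library exceeded each WT library, FT_1 by most, and the rise was 1.81-fold (log2 fold change 0.85, SE 0.14, edgeR with Benjamini-Hochberg adjusted p = 0.00535). Without FT_1 the log2 fold changes were -1.21 for RAD51B and 0.71 for RAD52. Here and below, coordinates are those of the authors' table, whose genome build is not given in the sources used here.

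Members of this role that were not called lay between -0.98 (XRCC2) and 1.20 (SYCP3, a protein of the meiotic chromosome axis with a mean of 0.353 FPKM in WT cells). XRCC2 (log2 fold change -0.98, edgeR with Benjamini-Hochberg adjusted p = 0.0506), RAD54L (-0.62), RAD51C (-0.74) and RAD51D (-0.36) were lower in each FT library than in any WT library without being called. RAD54B (0.07) and XRCC3 (0.09) overlapped between the groups. FT_1 was far from its group for RAD51C, which measured 3.27, 6.82 and 6.79 FPKM in FT cells and 10.4, 11.8 and 9.37 FPKM in WT cells. Without FT_1 RAD51C was called at a smaller difference (log2 fold change -0.46, edgeR with Benjamini-Hochberg adjusted p = 0.00385), as were XRCC2 (-0.98) and RAD54L (-0.44).

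Among the 10 members of the BRCA1 and BRCA2 complexes, BARD1 and a copy of SEM1 fell and BABAM2 rose (20.0% of all genes rose and 18.9% fell). BARD1 (ENSBTAG00000033690, chromosome 2, 102760020–102854286, minus strand), the partner of BRCA1 in its ubiquitin ligase, measured 0.69, 0.82 and 0.71 FPKM in FT cells and 2.36, 2.35 and 2.46 FPKM in WT cells. The groups were far apart relative to their spread, and the fitted level was 2.89-fold lower (log2 fold change -1.53, SE 0.14, edgeR with Benjamini-Hochberg adjusted p = 0.00119). BABAM2, a subunit of a BRCA1-bound complex that trims ubiquitin chains, measured 42.2, 44.3 and 43.6 FPKM in FT cells and 39.6, 34.3 and 39.5 FPKM in WT cells. The groups did not overlap but lay close, and the rise was 1.28-fold (log2 fold change 0.36, SE 0.09, edgeR with Benjamini-Hochberg adjusted p = 0.0208). This call held without FT_1 but was lost without any 1 of the other libraries (log2 fold change 0.29–0.39 over the 6 fits, edgeR with Benjamini-Hochberg adjusted p of at most 0.0701), with library totals alone, with the replicate number as a block and by limma. BRCA2, a large protein that helps to start strand exchange, was not called and measured 2.85, 0.86 and 1.02 FPKM in FT cells and 1.22, 1.36 and 1.14 FPKM in WT cells. Its level in FT_1 was above that of each other library, whereas FT_2 and FT_3 lay under the range of WT cells, and the log2 fold change was 0.50 with FT_1 (log2 fold change 0.50, SE 0.46, edgeR with Benjamini-Hochberg adjusted p = 0.43) and -0.23 without it. PALB2, the bridge between BRCA1 and BRCA2, overlapped between the groups with 2.64, 2.32 and 1.77 FPKM in FT cells and 2.41, 2.53 and 2.10 FPKM in WT cells (log2 fold change 0.09, edgeR with Benjamini-Hochberg adjusted p = 0.722). BRIP1, a helicase bound by BRCA1, measured 0.77, 1.77 and 1.83 FPKM in FT cells and 3.32, 2.89 and 3.62 FPKM in WT cells, with FT_1 the lowest. It was lower in each FT library, and the difference passed the test without FT_1 but not with it (-1.0 with adjusted p = 0.0684 in all libraries and -0.69 with adjusted p = 0.00131 without FT_1, edgeR with Benjamini-Hochberg adjustment). UIMC1 (0.24), BABAM1 (0.14) and ABRAXAS1 (-0.18), further subunits around BRCA1, were not called.

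SEM1 is a small acidic protein that binds BRCA2 and is also a subunit of the proteasome, and the table held it in 2 places. The annotated gene (ENSBTAG00000052508, chromosome 4, 14054960–14079935, minus strand) measured 88.2, 50.5 and 33.2 FPKM in FT cells and 54.7, 54.7 and 151 FPKM in WT cells. An entry without a symbol that the table described as SEM1 (ENSBTAG00000034496, chromosome 22, 22004736–22004948, minus strand) measured 44.1, 68.5 and 86.4 FPKM in FT cells and 282, 322 and 124 FPKM in WT cells. The libraries of 1 group differed widely in both, and in opposite senses: the copy took 18.7%, 38.4% and 54.5% of their joint counts in FT cells and 70.3%, 73.0% and 27.3% in WT cells. How reads shared by close copies were assigned is not given in the sources used here, so each entry alone is uncertain. The copy fell with all libraries (log2 fold change -1.71, SE 0.43, edgeR with Benjamini-Hochberg adjusted p = 0.0247) and was not called without FT_1 (log2 fold change -1.47, edgeR with Benjamini-Hochberg adjusted p = 0.0813) or without FT_2, WT_1 or WT_2 (at most 0.0855), and the annotated gene was not called (log2 fold change -0.45, edgeR with Benjamini-Hochberg adjusted p = 0.538). Summed, an alternative chosen after the data were seen, the pair gave 51.8, 39.1 and 34.8 CPM (counts scaled to library totals) in FT cells and 87.4, 96.4 and 98.8 in WT cells. The sums did not overlap between the groups, unlike the levels of the annotated gene, and fell by 1.02 on the log2 scale (SE 0.15, edgeR with Benjamini-Hochberg adjusted p = 0.00401).

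Of 7 members that sense breaks and trim their ends, RBBP8 rose and the others were not called (20.0% of all genes rose and 18.9% fell). RBBP8 (CtIP), which starts the trimming, measured 12.0, 11.1 and 10.6 FPKM in FT cells and 9.82, 10.6 and 9.64 FPKM in WT cells. FT cells lay above WT cells by a narrow margin in each library, a rise of 1.25-fold (log2 fold change 0.32, SE 0.08, edgeR with Benjamini-Hochberg adjusted p = 0.0193). Its call was lost without FT_2, WT_1 or WT_3 (edgeR with Benjamini-Hochberg adjusted p of at most 0.0870). The call of RBBP8 was also lost with library totals alone, with the replicate number as a block and by limma. The complex it works with overlapped between the groups for RAD50, with 13.9, 11.3 and 12.5 FPKM in FT cells and 11.9, 12.9 and 11.3 FPKM in WT cells (log2 fold change 0.22, edgeR with Benjamini-Hochberg adjusted p = 0.128), and for MRE11 (0.00). The remaining subunit, NBN, had a log2 fold change of -0.18 and was called without FT_1 (-0.32, edgeR with Benjamini-Hochberg adjusted p = 0.00841). TELO2, which helps the large checkpoint kinases to fold, measured 2.72, 2.60 and 1.87 FPKM in FT cells and 2.06, 1.74 and 1.96 FPKM in WT cells (log2 fold change 0.47, edgeR with Benjamini-Hochberg adjusted p = 0.079), and was called without FT_3 (0.61, edgeR with Benjamini-Hochberg adjusted p = 0.0377). ATRIP, the partner of the kinase ATR, had a log2 fold change of 0.49 with FT_1 and 0.11 without it, and TOPBP1, an activator of ATR, had -0.03.

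The complex that takes joint molecules apart consists of the helicase BLM, the topoisomerase TOP3A and the proteins RMI1 and RMI2, and its subunits did not move alike. RMI1 (ENSBTAG00000021135, chromosome 8, 77241944–77244793, plus strand) measured 3.59, 3.74 and 3.93 FPKM in FT cells and 6.52, 6.44 and 6.15 FPKM in WT cells. It was lower in each FT library, 1.52-fold in the fit (log2 fold change -0.60, SE 0.11, edgeR with Benjamini-Hochberg adjusted p = 0.00813). TOP3A measured 7.09, 7.11 and 6.76 FPKM in FT cells and 5.24, 5.70 and 6.20 FPKM in WT cells, with FT cells above WT cells in each library, and rose 1.36-fold (log2 fold change 0.45, SE 0.09, edgeR with Benjamini-Hochberg adjusted p = 0.0125). Its call was lost without WT_1 or WT_2 (edgeR with Benjamini-Hochberg adjusted p of at most 0.0551) and by limma. BLM overlapped between the groups with 1.01, 1.88 and 1.45 FPKM in FT cells and 1.81, 2.06 and 1.66 FPKM in WT cells (log2 fold change -0.19, edgeR with Benjamini-Hochberg adjusted p = 0.588), and its log2 fold change was 0.02 without FT_1. RMI2 measured 3.17, 4.64 and 4.14 FPKM in FT cells and 4.84, 6.72 and 4.51 FPKM in WT cells and overlapped too (log2 fold change -0.27, edgeR with Benjamini-Hochberg adjusted p = 0.408).

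Of the nucleases that cut branched or crosslinked DNA, 3 of 8 members rose and 1 fell (20.0% of all genes rose and 18.9% fell), with a median log2 fold change of 0.41. EME2 (ENSBTAG00000016553, chromosome 25, 1352321–1355120, plus strand), a partner of the nuclease MUS81, measured 3.96, 4.60 and 4.29 FPKM in FT cells and 1.92, 1.77 and 1.47 FPKM in WT cells. The lowest FT library was above the highest WT library, and the rise was 2.77-fold (log2 fold change 1.47, SE 0.20, edgeR with Benjamini-Hochberg adjusted p = 0.00335). EME1, the other partner of MUS81, fell and measured 3.32, 2.61 and 2.46 FPKM in FT cells and 5.29, 6.21 and 4.74 FPKM in WT cells. The groups were apart in the opposite sense (log2 fold change -0.79, SE 0.17, edgeR with Benjamini-Hochberg adjusted p = 0.0143). Its call was lost without FT_2, WT_1 or WT_2 (edgeR with Benjamini-Hochberg adjusted p of at most 0.0580). MUS81 itself was higher in each FT library without being called (log2 fold change 0.37, edgeR with Benjamini-Hochberg adjusted p = 0.0525) and was called without FT_1 (0.44). EME2 shares 1120 bases with MRPS34 on the opposite strand, whose level did not pass the test (log2 fold change 0.21, edgeR with Benjamini-Hochberg adjusted p = 0.211), and since it is not stated that counting used the strand, EME2 carries that uncertainty.

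ERCC1 (ENSBTAG00000017355, chromosome 18, 53024536–53039604, minus strand) forms with ERCC4 the nuclease that unhooks crosslinks. It measured 45.0, 30.8 and 31.0 FPKM in FT cells and 21.3, 20.9 and 21.3 FPKM in WT cells. The WT libraries were nearly equal, FT_1 was the highest, and the rise was 1.87-fold with all libraries (log2 fold change 0.91, SE 0.15, edgeR with Benjamini-Hochberg adjusted p = 0.00648) and 0.72 on the log2 scale without FT_1. SLX4, the scaffold on which several of these nucleases dock, measured 5.29, 4.49 and 4.56 FPKM in FT cells and 3.33, 3.58 and 4.06 FPKM in WT cells. FT cells were higher in each library (log2 fold change 0.54, SE 0.11, edgeR with Benjamini-Hochberg adjusted p = 0.0125). Its call was lost without WT_1 or WT_2 (edgeR with Benjamini-Hochberg adjusted p of at most 0.0558). The call of SLX4 was also lost with the replicate number as a block and by limma. ERCC4 (0.34), SLX1A (0.44) and FAN1 (0.06) overlapped between the groups and were not called. SLX1A shares 1431 bases with SULT1A1 on the same strand, so its value is uncertain.

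The Fanconi core complex and the proteins that anchor it to DNA held 11 members, of which 3 rose, 3 fell and 5 were not called (20.0% of all genes rose and 18.9% fell). CENPS (ENSBTAG00000013531, chromosome 16, 43134178–43148824, minus strand), a histone-fold protein that binds DNA with FANCM and also sits at centromeres, had the lowest log2 fold change of the 64 members. It measured 6.61, 8.03 and 8.74 FPKM in FT cells and 33.3, 44.8 and 32.4 FPKM in WT cells. The groups were far apart and the fitted level was 4.22-fold lower (log2 fold change -2.08, SE 0.19, edgeR with Benjamini-Hochberg adjusted p = 0.00114). Its partner CENPX was lower in each FT library without being called (log2 fold change -0.34, edgeR with Benjamini-Hochberg adjusted p = 0.153). FAAP100 (ENSBTAG00000019104, chromosome 19, 51224646–51233871, plus strand), which holds the ligase subunits of the core together, measured 3.76, 2.44 and 2.51 FPKM in FT cells and 1.23, 1.11 and 1.21 FPKM in WT cells. Each FT library lay above each WT library, FT_1 by most, and the rise was 2.73-fold (log2 fold change 1.45, SE 0.21, edgeR with Benjamini-Hochberg adjusted p = 0.00391) and 1.23 on the log2 scale without FT_1. FANCM, the motor protein that recognises the crosslink, measured 2.37, 2.17 and 1.88 FPKM in FT cells and 1.53, 1.72 and 1.46 FPKM in WT cells. It was higher in each FT library (log2 fold change 0.60, SE 0.13, edgeR with Benjamini-Hochberg adjusted p = 0.0127), but it overlaps another gene on the opposite strand, so its value is uncertain. FANCA, a core subunit, measured 1.32, 1.35 and 1.40 FPKM in FT cells and 2.04, 2.05 and 2.38 FPKM in WT cells. It was lower in each FT library (log2 fold change -0.51, SE 0.13, edgeR with Benjamini-Hochberg adjusted p = 0.0268). FANCL, the ligase itself, fell (log2 fold change -0.52, edgeR with Benjamini-Hochberg adjusted p = 0.0256), and FANCE, which contacts FANCD2, rose (log2 fold change 0.61, edgeR with Benjamini-Hochberg adjusted p = 0.0322). FANCC (0.31), FANCF (-0.92), FANCG (0.01) and FAAP24 (-0.31) were not called. Without FT_1 FANCF fell (-1.26) and FANCC rose (0.38). The calls of FANCA and FANCE were lost without any 1 of the libraries other than FT_1, that of FANCL without FT_2, FT_3, WT_2 or WT_3 and that of FANCM without WT_1 or WT_3 (edgeR with Benjamini-Hochberg adjusted p of at most 0.0952, 0.103, 0.0873 and 0.0615 in that order). FANCA also lost its call with the replicate number as a block, and FANCM by limma.

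The RNA of both proteins of the clamp that the core complex marks with ubiquitin was lower in FT cells. FANCD2 (ENSBTAG00000010077, chromosome 22, 16737949–16789121, minus strand) measured 2.36, 2.63 and 2.74 FPKM in FT cells and 6.79, 8.03 and 6.29 FPKM in WT cells. No FT library came near the WT range, and the fitted level was 2.44-fold lower (log2 fold change -1.29, SE 0.13, edgeR with Benjamini-Hochberg adjusted p = 0.0014). FANCI (ENSBTAG00000009097, chromosome 21, 20722980–20787043, plus strand) measured 2.35, 3.87 and 3.74 FPKM in FT cells and 9.50, 12.7 and 9.77 FPKM in WT cells. FT_1 was the lowest, the groups did not overlap, and the level was 2.86-fold lower with FT_1 (log2 fold change -1.52, SE 0.24, edgeR with Benjamini-Hochberg adjusted p = 0.00497) and fell by 1.31 on the log2 scale without it. USP1, which takes the ubiquitin off again, measured 14.7, 13.7 and 14.8 FPKM in FT cells and 24.0, 24.6 and 19.1 FPKM in WT cells. It was lower in each FT library by a smaller factor (log2 fold change -0.49, SE 0.11, edgeR with Benjamini-Hochberg adjusted p = 0.0196). Its call was lost without FT_2, WT_1 or WT_2 (edgeR with Benjamini-Hochberg adjusted p of at most 0.0793). Its activator WDR48 (0.03) and the ubiquitin-conjugating enzyme UBE2T (-0.11) overlapped between the groups and were not called, so that 3 of the 5 members of this role fell (18.9% of all genes did).

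Of 6 translesion polymerases, POLN and POLH fell, POLK rose and 3 were not called (20.0% of all genes rose and 18.9% fell). POLN, the scarcest of them, measured 0.16, 0.14 and 0.17 FPKM in FT cells and 0.4, 0.45 and 0.67 FPKM in WT cells. At these levels the groups did not overlap (log2 fold change -1.52, SE 0.35, edgeR with Benjamini-Hochberg adjusted p = 0.0173). POLH, which copies past ultraviolet damage, measured 5.56, 8.52 and 9.33 FPKM in FT cells and 14.5, 16.1 and 14.7 FPKM in WT cells. FT_1 was the lowest and the groups were apart (log2 fold change -0.79, SE 0.21, edgeR with Benjamini-Hochberg adjusted p = 0.0291), and the log2 fold change was -0.58 without FT_1. POLH shares 4453 bases with XPO5 on the opposite strand, whose level was not called. POLK measured 12.8, 10.5 and 10.2 FPKM in FT cells and 9.73, 9.89 and 9.39 FPKM in WT cells, higher in each FT library by a narrow margin (log2 fold change 0.37, SE 0.10, edgeR with Benjamini-Hochberg adjusted p = 0.0284). REV3L, the catalytic subunit of polymerase zeta, measured 9.36, 21.2 and 23.3 FPKM in FT cells and 23.4, 19.6 and 24.1 FPKM in WT cells. FT_1 alone was low while FT_2 and FT_3 lay within the WT range, and the log2 fold change was -0.15 with FT_1 (log2 fold change -0.15, SE 0.35, edgeR with Benjamini-Hochberg adjusted p = 0.761) and 0.16 without it. POLI (-0.22) and REV1 (0.34) were not called, and REV1 rose without FT_1 (0.22). The calls of POLH and POLK were lost without FT_2 or any 1 of the WT libraries and that of POLN without FT_2, WT_2 or WT_3 (edgeR with Benjamini-Hochberg adjusted p of at most 0.101, 0.0992 and 0.0679 in that order). With the replicate number as a block POLK and POLN were not called. POLK also lost its call with library totals alone and by limma.

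PMS2, a mismatch repair protein that the Fanconi pathway also lists, was lower in each FT library, with 2.18, 2.12 and 2.43 FPKM in FT cells and 2.56, 2.65 and 2.73 FPKM in WT cells, but was not called (log2 fold change -0.08, edgeR with Benjamini-Hochberg adjusted p = 0.591). HES1 (ENSBTAG00000000569, chromosome 1, 73362759–73365438, minus strand), a transcriptional repressor downstream of Notch that the table places in the Fanconi pathway, measured 41.4, 35.2 and 28.5 FPKM in FT cells and 70.3, 83.0 and 67.7 FPKM in WT cells. The groups were apart by more than their spread and the level was 1.89-fold lower (log2 fold change -0.91, SE 0.15, edgeR with Benjamini-Hochberg adjusted p = 0.00582).

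**Figure D2:**
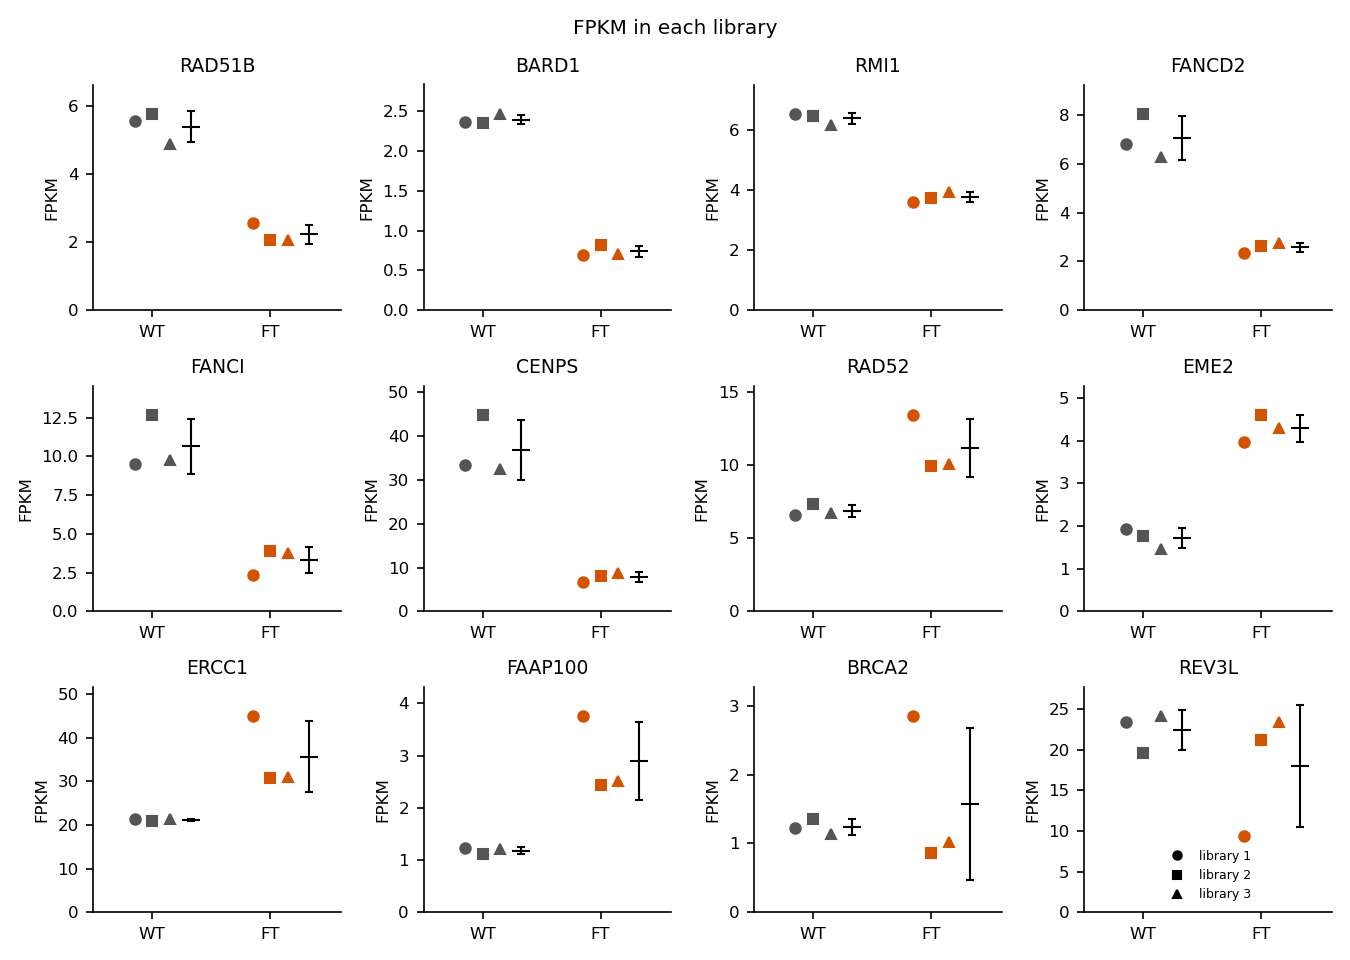
FPKM of 12 members in each library. Symbols mark libraries 1, 2 and 3 of each group (grey, WT; orange, FT) and bars show the mean and SD of a group, each axis starting at 0. In RAD51B, BARD1, RMI1, FANCD2, FANCI and CENPS each FT library lies under each WT library, in RAD52, EME2, ERCC1 and FAAP100 each lies above, and in BRCA2 and REV3L library FT_1 lies away from FT_2 and FT_3.

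Pairs of genes were then set against each other as the ratio of their FPKM within a library, which the scaling of libraries cannot change. The pairs were chosen after the values had been seen, so the ratios are a description, and the smallest p that an exact two-sided permutation test can reach with 3 libraries a group is 0.10. The level of EME1 was 0.838, 0.567 and 0.573 times that of EME2 in FT cells and 2.76, 3.51 and 3.22 times in WT cells. By FPKM, the more abundant partner of MUS81 was thus EME2 in each FT library and EME1 in each WT library. This order carries the uncertainty of EME2 given above, from the bases it shares with MRPS34. RMI1 over TOP3A gave 0.506, 0.526 and 0.581 in FT cells and 1.24, 1.13 and 0.992 in WT cells, FANCI over FANCM gave 0.992, 1.78 and 1.99 against 6.21, 7.37 and 6.69, and POLH over POLK gave 0.435, 0.812 and 0.911 against 1.49, 1.63 and 1.56. Each of these 4 ratios was lower in each FT library than in any WT library (exact permutation p = 0.10 each, the smallest possible). That outcome was fixed by the choice of pairs. In each pair the first gene was lower and the second higher in each FT library than in any WT library. The ratios and their p therefore add no evidence to the levels given above.

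Other ratios overlapped between the groups. FANCD2 over MKI67, a marker of proliferation, was 0.463, 0.249 and 0.259 in FT cells and 0.282, 0.305 and 0.245 in WT cells (exact permutation p = 0.80). BARD1 over BRCA1 gave 0.429, 0.245 and 0.211 against 0.375, 0.314 and 0.374 (exact permutation p = 0.40), and FANCD2 over FANCI gave 1.0, 0.68 and 0.733 against 0.715, 0.633 and 0.644 (exact permutation p = 0.20). FT_1 held the highest value of these 3 ratios. Of 9 ratios computed 7 are given here, and with 3 libraries a group, a p above the threshold does not show that these genes moved alike.

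**Figure D3:**
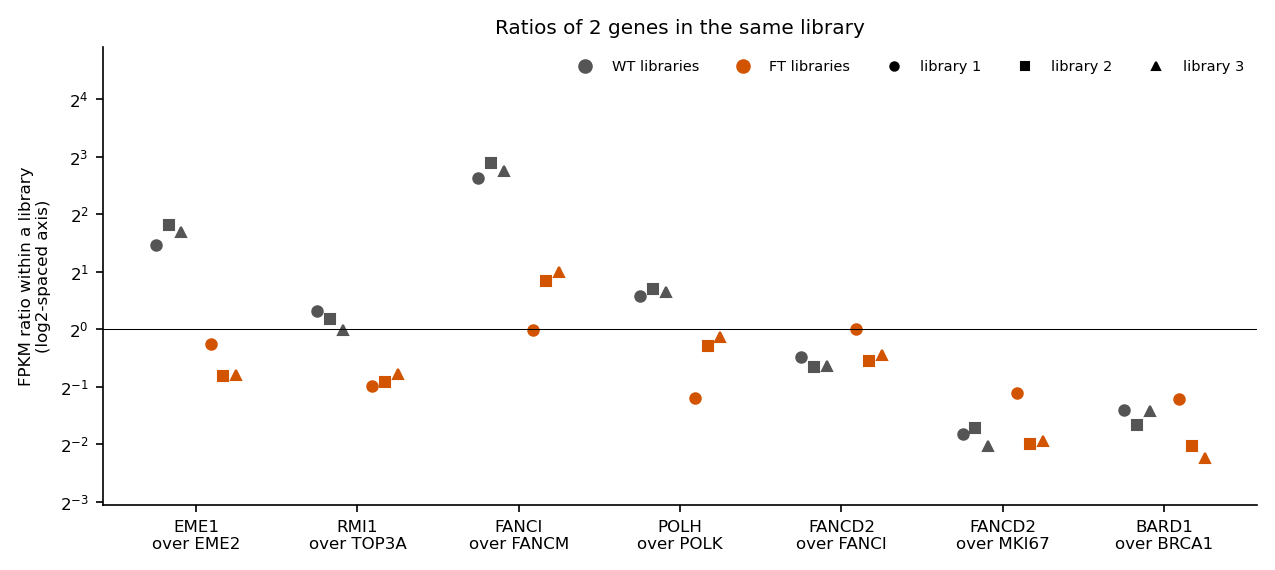
Ratio of the FPKM of 2 genes within each library, on a log2-spaced axis, for WT (grey) and FT (orange) libraries, with symbols for libraries 1, 2 and 3. The 4 ratios on the left do not overlap between the groups (EME1 over EME2 is under 1 in each FT library and above 1 in each WT library), and FANCD2 over MKI67, BARD1 over BRCA1 and FANCD2 over FANCI overlap.

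The 12 genes of the same pathways that the choice of members left out were measured too: 5 fell, 1 rose and 6 were not called, with a median of -0.01 (5 fell and 2 rose without FT_1). RPA3, a subunit of the protein that coats single-stranded DNA, measured 10.5, 16.9 and 14.9 FPKM in FT cells and 47.6, 59.4 and 49.4 FPKM in WT cells. The groups did not overlap (log2 fold change -1.73, SE 0.21, edgeR with Benjamini-Hochberg adjusted p = 0.00228). Its partners RPA2 (-0.67) and RPA1 (-0.59), the mitochondrial SSBP1 (-0.40) and BRCA1 fell as well. BRCA1 measured 1.61, 3.35 and 3.36 FPKM in FT cells and 6.29, 7.49 and 6.58 FPKM in WT cells, with FT_1 the lowest (log2 fold change -1.13, SE 0.30, edgeR with Benjamini-Hochberg adjusted p = 0.031, -0.84 without FT_1). TOP3B rose (0.66), and the kinases ATM and ATR and the polymerase subunits POLD1, POLD2, POLD3 and POLD4 were not called. A further list of 33 recombination genes outside both pathways had 11 that fell and 5 that rose, with a median of -0.23. These counts rested on the libraries and the scaling: 17 fell and 7 rose without FT_1, 4–8 fell and 0–1 rose without another library, and 14 fell and 0 rose by edgeR with library totals alone. SFR1, a recombination mediator, measured 3.25, 2.62 and 2.34 FPKM in FT cells and 7.56, 7.02 and 8.42 FPKM in WT cells and fell (log2 fold change -1.33, SE 0.17, edgeR with Benjamini-Hochberg adjusted p = 0.00266). RAD51AP1, which promotes strand exchange, measured 1.88, 3.35 and 3.07 FPKM in FT cells and 9.39, 10.9 and 9.04 FPKM in WT cells and fell too (log2 fold change -1.66, SE 0.25, edgeR with Benjamini-Hochberg adjusted p = 0.00413).

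Genes of other repair pathways and of the dividing cell were counted beside the members, by the same fit and without a test of the lists. The lists share genes such as PCNA with each other, and those of nucleotide excision repair, mismatch repair and end-joining each hold 2 of the members. In base excision repair 10 of 32 genes fell and 4 rose (median 0.01), among them PARP2 (-0.90) and HMGB1 (-1.29). In nucleotide excision repair 19 of 42 fell and 4 rose (median -0.25), with GTF2H5 (-1.18) and the shared PCNA (-1.50) in front. In mismatch repair 15 of 22 fell (median -0.63), with PCNA and RFC3 (-1.09), and in non-homologous end-joining 2 of 12 fell and 2 rose (median -0.19), with POLL (0.77) and XRCC5 (-0.73). Of the KEGG lists that the choice of members had set aside, 22 of 34 genes of DNA replication fell and 1 rose (median -0.78, RNASEH2A -1.21), and 47 of 116 of the cell cycle fell and 13 rose (median -0.33, CDC25B -1.81). Without FT_1 the falls and rises were 12 and 7 in base excision repair, 22 and 7 in nucleotide excision repair, 15 and 1 in mismatch repair, 5 and 3 in end-joining, 24 and 3 in DNA replication and 67 and 21 in the cell cycle. With FT_2, FT_3 or a WT library left out instead, they were 6–9 and 2–4, 11–16 and 4–5, 7–12 and 0, 1–2 and 1–2, 13–19 and 1, and 31–39 and 5–9 in the same order. With library totals alone end-joining had 5 falls and 1 rise and the cell cycle 54 and 6. Whether these lists differ from the members was not tested.

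Of 14 genes most expressed around mitosis all 14 fell, with a median of -1.57, and 12 did without any 1 of the WT libraries. CDK1, the kinase that starts mitosis, measured 4.02, 4.14 and 3.57 FPKM in FT cells and 13.4, 14.9 and 12.2 FPKM in WT cells (log2 fold change -1.63, SE 0.11, edgeR with Benjamini-Hochberg adjusted p = 0.00068). CCNB1, its cyclin, measured 8.20, 13.8 and 12.1 FPKM in FT cells and 74.0, 91.7 and 73.7 FPKM in WT cells (log2 fold change -2.65, SE 0.23, edgeR with Benjamini-Hochberg adjusted p = 0.00105). Their list summed to 78.6, 132.7 and 123.6 FPKM in FT cells and 408.4, 499.4 and 408.5 FPKM in WT cells. Of 16 S phase genes 11 fell and the others were lower in each FT library without being called (median -1.0, 14 fell without FT_1 and 8–10 without another library), and they summed to 160.9, 216 and 211.5 FPKM in FT cells and 453.7, 536.1 and 440.6 FPKM in WT cells. TYMS (-1.46) and PCNA (-1.50) had the smallest p among them. Of 17 transcription factors of the cell cycle 4 rose and 4 fell (4 and 5 without FT_1, 2–3 and 1–2 without another library). The median of this list was -0.27 with all libraries and -0.02 without FT_1. RBL2 (0.58) and E2F4 (0.65) were among the rises. Of 18 targets of p53 8 fell and 2 rose (median -0.46), against 13 and 3 without FT_1 (median -0.75) and 6–7 and 1–2 without another library, with BAX (-1.15) and CCNG1 (-1.22) among the falls. Markers of division were thus lower in FT cells. Of the 64 members 11 rose (17.2%), 16 fell (25.0%) and 37 were not called, with a median of -0.09. Among all genes tested 20.0% rose and 18.9% fell. Whether the markers moved together with any member was not tested, nor was their part in these results.

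**Figure D4:**
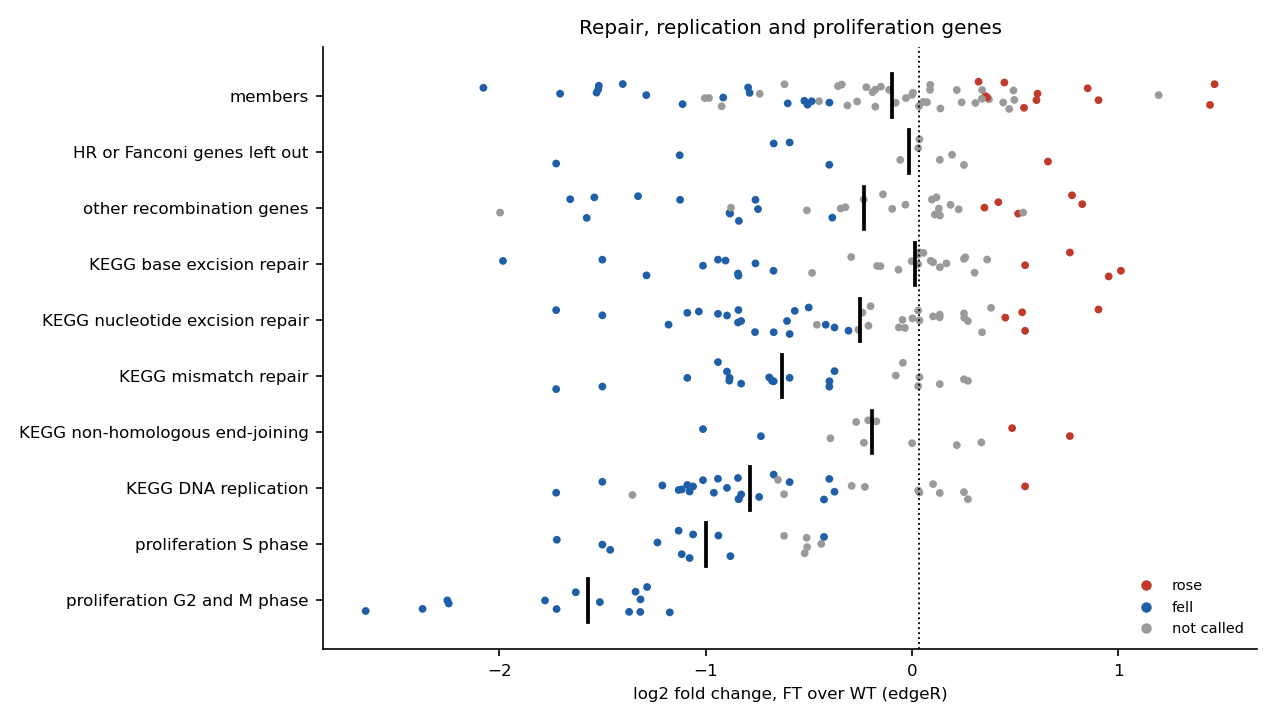
Log2 fold change (FT over WT, edgeR) of each tested gene of the members and of 9 other lists, with colours for genes that rose (red), fell (blue) or were not called (grey). Thick bars mark the median of a list and the dotted line the median of all genes (0.03). The members spread to both sides, whereas all 14 genes of G2 and M phase lie under 0.

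Without FT_1, 13765 genes were tested, of which 4208 rose (30.6%) and 4335 fell (31.5%). Of the members 14 rose and 21 fell, with a median of -0.05. All 11 members that rose and 15 of the 16 that fell kept their call, and the SEM1 copy lost it. BRIP1, FANCF, NBN, RAD51C, RAD54L and XRCC2 fell and FANCC, MUS81 and REV1 rose in the fit without FT_1, though not in that with all libraries. Such gains were also seen for ERCC4 (log2 fold change 0.43) and RAD54L (lower) without FT_2, TELO2 (0.61) without FT_3 and SLX1A (0.64) without WT_3. For 6 members (RAD51C, BRIP1, SYCP3, BRCA2, SEM1 and REV3L) FT_1 was over 2-fold away from the mean of FT_2 and FT_3. Calls that held whichever of the 6 libraries was left out included those of RAD51B, BARD1, RMI1, CENPS, FANCD2, FANCI and HES1, which fell, and of RAD52, EME2, ERCC1 and FAAP100, which rose. In all, 15 members, among them BABAM2, FANCA and FANCE in 5 of the 6 fits, lost their call without at least 1 library, with adjusted p of at most 0.103 by edgeR with Benjamini-Hochberg adjustment, and all 27 called members kept their sign in each such fit. Calls were lost for 12 members without FT_2, 4 without FT_3, 13 without WT_1, 13 without WT_2 and 10 without WT_3.

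**Figure D5:**
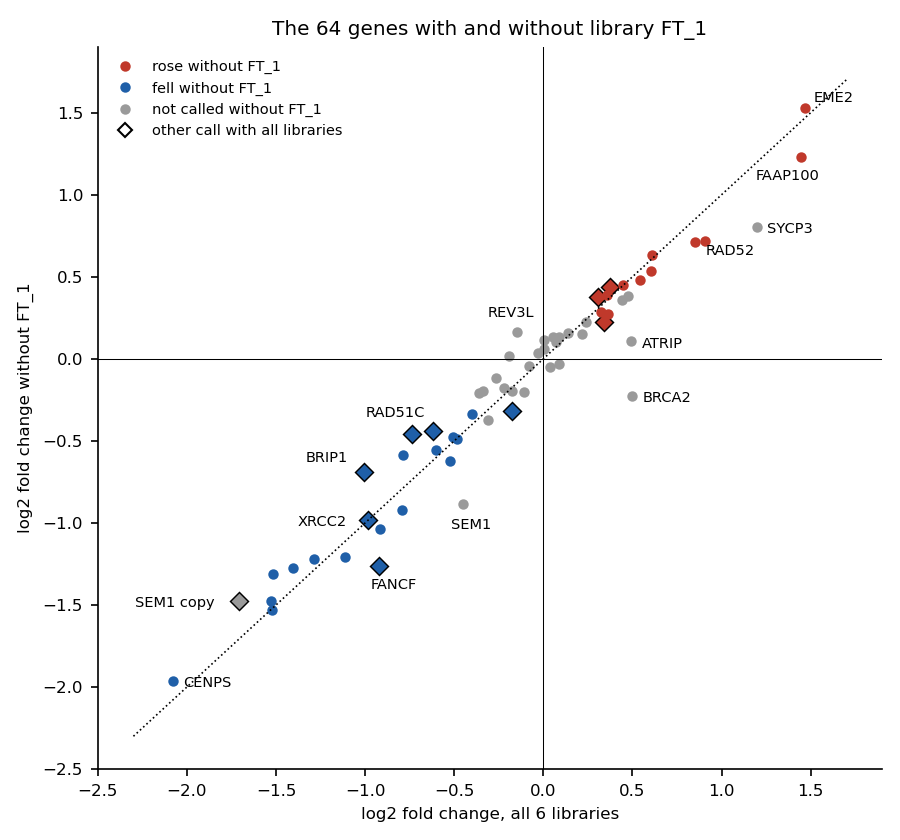
Log2 fold change (FT over WT, edgeR) of the 64 members with all 6 libraries (horizontal axis) and without FT_1 (vertical axis). Colours give the call without FT_1, diamonds mark members whose call differed with all libraries, and the dotted line marks equal values. BRCA2 lies farthest from it among the labelled genes, at 0.50 with FT_1 and -0.23 without.

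The members ranged widely in level and lay on many chromosomes, and whether their positions cluster was not tested. Their mean level in WT cells ran from 0.353 FPKM (SYCP3) to 242.7 FPKM (SEM1 copy), with a median of 6.79 FPKM in WT and 4.99 FPKM in FT cells, and 24 of them were under 5 FPKM in WT cells. By pathway, 3 rose and 3 fell of the 20 in homologous recombination alone, 7 rose and 11 fell of the 35 in the Fanconi pathway alone, and 1 rose and 2 fell of the 9 in both, where 20.0% of all genes tested rose and 18.9% fell. As shares these were 15.0% and 15.0%, 20.0% and 31.4%, and 11.1% and 22.2%. Chromosome 25 held 8 members, the most of any, of which EME2 and SLX4 rose and the others were not called (median 0.39). The 518 genes tested on that chromosome had a median of 0.23 and 28.8% of them rose and 12.9% fell. Chromosome 19 held 7 members, with 2 that rose, 1 that fell and a median of -0.36, and of the 845 genes tested there 24.0% rose and 14.4% fell, with a median of 0.14. The relative length of the gene, taken from counts over FPKM in units of the median of all tested genes, had medians of 1.19 for members that fell, 1.18 for those that rose and 1.22 for those not called. Spearman's correlation of this length with the log2 fold change was 0.16 over the 13482 genes and 0.14 over the 64 members, a description across genes, which are not independent replicates. Of the members 17 overlapped another gene of the table and 5 of these on the same strand, and their values carry the uncertainty given above.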

How the data were processed

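RNA of bEFs from 3 FT and 3 WT fetuses was measured as 1 poly(A) library each, with groups taken from the sample labels. The authors aligned with HISAT against a reference genome from UCSC, merged transcripts with Perl scripts, estimated expression with StringTie and edgeR, and deposited raw counts per gene. The FPKM values in the same table were deposited by the authors too, scaled by gene length and library. The submitters' processing notes name HISAT2 2.0, StringTie 1.3.0, Bowtie 0.12.2 and mm8, a mouse build. The bovine build and the use of strand in counting are not given in the sources used here.

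Counts were tested in R 4.3.3 with edgeR 4.0.16 (TMM factors, filterByExpr, robust quasi-likelihood fit, group as the only term), with Benjamini-Hochberg adjustment over all genes tested. The SE is the absolute log2 fold change over the square root of F. FPKM served for levels, overlap and ratios. Alternatives were DESeq2 1.42.0, limma 3.58.1 on log2(FPKM + 1) or log2(FPKM + 0.1) with a mean of at least 0.5 FPKM, DESeq2 size factors, library totals alone, no filter, a mean of at least 1 CPM, the study's threshold, a replicate block, each library left out and the SEM1 entries summed. The methods were tested on simulated data.

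Named were the up to 3 members of each role with the smallest p, BRCA2, PALB2, FANCA, FANCD2, FANCI, BLM, REV3L and HES1 whatever their values, members not called, and 2 genes of each other list. EME1, FANCE, FANCL, the further genes left out of the members and the marker genes given singly were named after their values were seen. The members and lists were chosen with earlier results of these data known. Promoter sequences were not analysed here, and single values of some genes are not reported here.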

Additional observations from a re-analysis of the deposited data

How the results depend on the processing

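All 22 called genes among the 30 named by rule kept their direction under each of the alternatives that gave them a value. With library totals alone 7 members rose and 21 fell, with a median of -0.24. limma on log2(FPKM + 1) gave 4 rises, 23 falls and a median of -0.17, and on log2(FPKM + 0.1) 4 rises, 23 falls and a median of -0.23. All genes leaned the same way in these fits, with 1837 rises and 3573 falls in the first and 1880 and 3529 in the second, and with library totals alone (2031 and 3385). The study's threshold gave 1366 rises and 1190 falls among all genes and 2 and 9 among members. Leaving out each library in turn gave 1499–4208 rises and 1504–4335 falls among all genes, 4–14 rises and 8–21 falls among members, and medians from -0.11 to -0.04. Genes that were not called took the other sign in log2 fold change: PALB2 with library totals alone (-0.0601) and with limma at either pseudocount (-0.0522 and -0.076), and, without FT_1, PALB2, BRCA2, BLM and REV3L. With each library left out these ranged from -0.0336 to 0.224 for PALB2, -0.23 to 0.79 for BRCA2, -0.43 to 0.0202 for BLM and -0.40 to 0.16 for REV3L. The cause was not tested. Without filtering, with DESeq2 size factors or with DESeq2, all 30 named genes kept direction and call. With the replicate number as a block, 6 members rose and 10 fell (1828 and 1735 of all genes), and 8 named genes lost their call. These were BABAM2, the SEM1 copy, RBBP8, SLX4, FANCA, USP1, POLN and POLK. By limma at either pseudocount BABAM2, RBBP8, TOP3A, SLX4, FANCM and POLK were not called. Same-numbered libraries come from different fetuses, and their deviations correlated at -0.00103, -0.0198 and 0.0184, so the numbers do not pair them, and not every library correlated best with its own number. With 3 libraries a group and 48167642–69777641 counts each, small differences may have been missed, and no detection limit was computed.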
